A study of Mus musculus with 12 samples.

Results

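Ppp1r3a, its relatives and the enzymes that build and degrade glycogen were followed in RNA-seq of isolated mouse glomeruli. The set holds 10 named genes of the 26264 in the count tables. They are the protein phosphatase 1 (PP1) subunits Ppp1r3a, Ppp1r3b, Ppp1r3c, Ppp1r3d, Ppp1r3e and Ppp1r3f and the enzymes Gys1, Gbe1, Pygb and Pygl. The members were chosen by the difference of Ppp1r3a between substrains, which was already known from these libraries to be higher in ByJcl than in AJcl. Differences of the members between substrains are therefore a description, given with a standard error (SE) and without p-values. All 10 genes passed the filter on low counts, and each had at least 40 counts in every library.

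The animals were male mice aged 8 weeks of 2 substrains, BALB/cAjcl, here AJcl, and BALB/cByJcl, here ByJcl, with no transgene or deletion named. Kidneys were taken untreated (baseline) or on Day 5 after 1 intravenous dose of adriamycin (ADR, doxorubicin), an anthracycline that injures podocytes, at 10 mg/kg. Each of the 4 groups had 3 libraries, and the labels do not tie a library to a mouse, so p-values measure the spread between libraries only. Baseline mice are called untreated, while the methods speak of saline for control mice and the baseline columns are named as controls, so whether they were injected is unclear. In addition, the baseline and Day 5 counts came as separate tables.

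Glycogen is the branched store of glucose inside cells. Glycogen synthase lengthens its chains, the branching enzyme adds branch points and glycogen phosphorylase releases glucose units from the ends. PP1 switches the synthase on and the phosphorylase off, and the Ppp1r3 proteins bring PP1 to the glycogen particle. Ppp1r3a is best known as the subunit of striated muscle, and Ppp1r3b as that of liver.

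Each Ppp1r3 protein holds PP1 through a short motif named RVxF. Many other PP1 partners also carry a motif of this kind. The stretches below are printed to show it in the 6 family members side by side. Each is 48 bases of the coding strand of the canonical transcript, read from GENCODE transcripts on GRCm39, and capitals mark the codons of the motif. GRCm39 is the genome of another strain, C57BL/6J, and the sequence of the BALB/c substrains was not analysed here.
Ppp1r3a: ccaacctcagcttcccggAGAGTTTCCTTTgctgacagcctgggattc
Ppp1r3b: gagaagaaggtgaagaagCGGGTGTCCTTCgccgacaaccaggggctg
Ppp1r3c: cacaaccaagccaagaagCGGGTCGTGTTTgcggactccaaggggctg
Ppp1r3d: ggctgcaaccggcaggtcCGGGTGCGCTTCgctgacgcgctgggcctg
Ppp1r3e: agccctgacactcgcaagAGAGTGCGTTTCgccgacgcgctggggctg
Ppp1r3f: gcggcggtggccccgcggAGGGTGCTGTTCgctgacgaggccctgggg
The stretches lie at chr6:14755024-14755071 (Ppp1r3a, minus strand, exon 1 of 4), chr8:35851325-35851372 (Ppp1r3b, plus, exon 2 of 2) and chr19:36711490-36711537 (Ppp1r3c, minus, exon 2 of 2). Those of the other genes lie at chr2:178055728-178055775 (Ppp1r3d, minus, its only exon), chr14:55114473-55114520 (Ppp1r3e, minus, exon 1 of 2) and chrX:7440353-7440400 (Ppp1r3f, minus, exon 1 of 4). The Ppp1r3a coding sequence has 1089 codons and holds a second match to the motif's pattern at codon 205. The reading frames of Ppp1r3b, Ppp1r3c, Ppp1r3d and Ppp1r3e are shorter, at 284, 317, 279 and 279 codons. The longest run of bases shared by a transcript of Ppp1r3a and one of another family member, Ppp1r3g included, was 12 to 20 bases, against reads of 150 bases.

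Ppp1r3a was the member that separated the substrains. Its level is given as CPM, the count scaled to a common library size by the TMM method. In AJcl at baseline it stood at 1.5, 1.9 and 0.9 CPM in replicates 1 to 3, from 66, 90 and 40 counts. In ByJcl at baseline it stood at 37.0, 40.0 and 60.1 CPM, from 1722, 1906 and 3301 counts. Every ByJcl library lay far above every AJcl library, and the lowest ByJcl value was not approached by any AJcl library.
The Day 5 libraries held the same order. AJcl gave 2.1, 2.3 and 2.7 CPM of Ppp1r3a and ByJcl gave 67.5, 43.0 and 49.8 CPM. The ratio of the ByJcl mean to the AJcl mean was 32.1 at baseline and, leaving out AJcl Day 5 replicate 1, 21.4 at Day 5. That library was excluded by the study for reduced glomerular purity and is left out of all fold changes below unless stated. The fitted log2 fold change of Ppp1r3a, ByJcl over AJcl, was 5.02 (SE 0.32) at baseline and 4.42 (SE 0.37) at Day 5. With all 12 libraries these values were 5.00 and 4.49. In bulk RNA, a difference in the number of cells that express a gene cannot be told apart from a difference in RNA per cell.

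**Figure D1:**
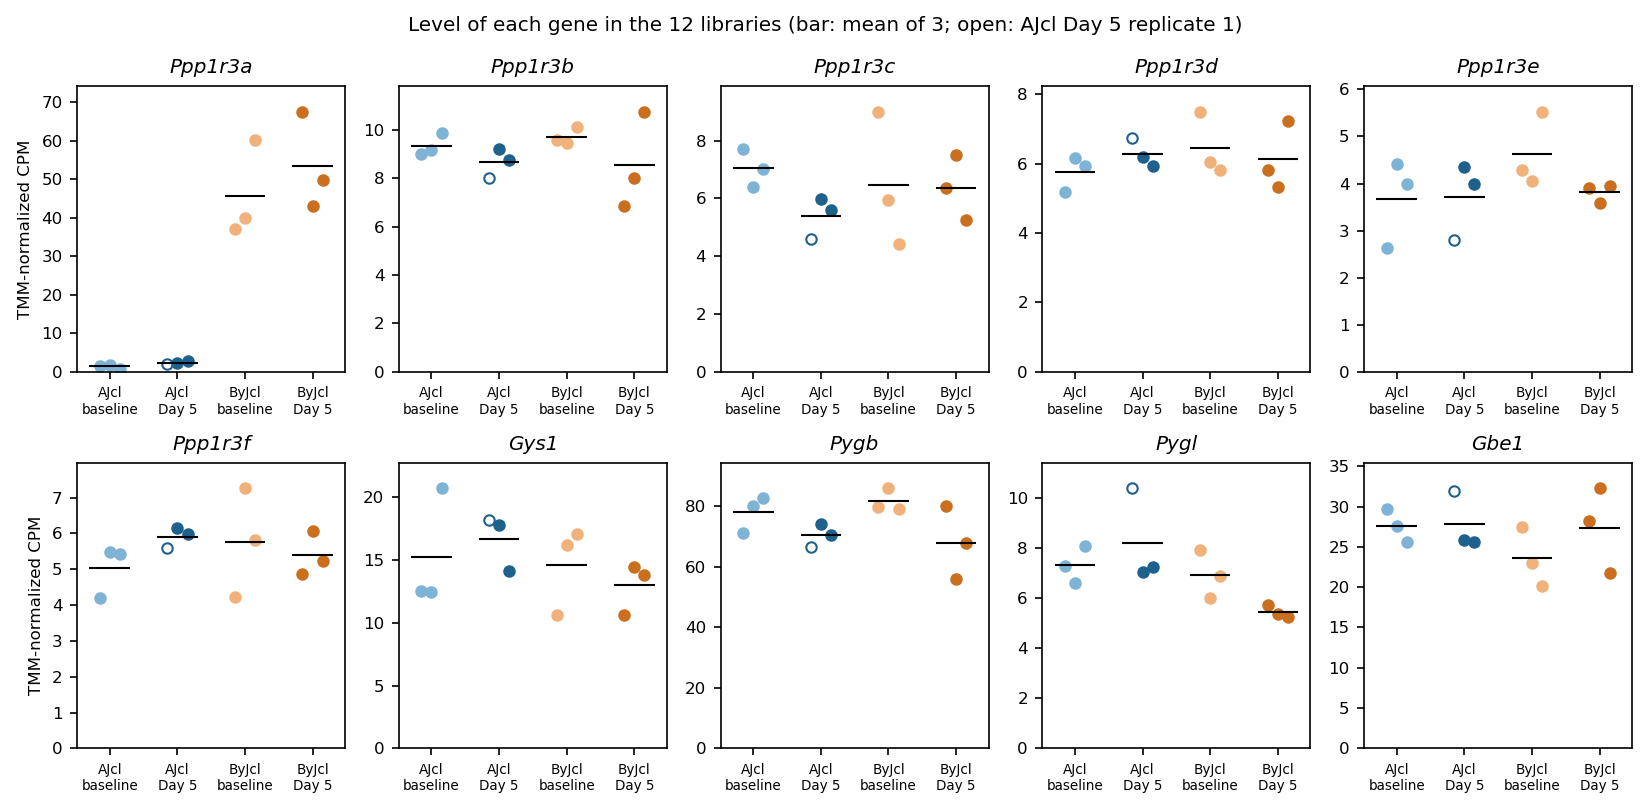
TMM-normalized CPM (vertical axes, from 0) of the 10 genes in each of the 12 libraries, by group, with a bar at the mean of 3 and an open circle for AJcl Day 5 replicate 1. Ppp1r3a lies between 0.9 and 2.7 CPM in AJcl and between 37.0 and 67.5 CPM in ByJcl, while the groups of the other genes lie close together.

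By the adjusted p of 0.05 used over all genes, the members past the threshold between substrains numbered 1 at baseline and 1 at Day 5, Ppp1r3a in each case, a count given as a description only. Over all 17002 genes tested, 0.159% passed at baseline and 0.165% at Day 5, and nothing is read from the members' count because this difference was the reason for the choice. The median log2 fold change over the members was 0.09 at baseline and -0.08 at Day 5, against 0.01 and 0.00 over all genes tested. At baseline the libraries of the substrains did not overlap for 1 member, Ppp1r3a, and for 14.3% of all genes tested. At Day 5 they did not overlap for 3 members, Ppp1r3a (higher in ByJcl) and Ppp1r3e and Pygl (lower), and for 33.0% of all genes tested. Ppp1r3e overlapped once AJcl Day 5 replicate 1, at 2.8 CPM, was put back.

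The other subunits showed small differences. Ppp1r3b, the liver-type subunit, had levels of 9.0 to 9.9 CPM in AJcl and 9.4 to 10.1 CPM in ByJcl at baseline, with a log2 fold change of 0.08 (SE 0.17). Ppp1r3c, also known as protein targeting to glycogen, ranged from 6.4 to 7.7 CPM in AJcl and from 4.4 to 9.0 CPM in ByJcl at baseline, with a log2 fold change of -0.10 (SE 0.24). Both pairs of groups overlapped.
Ppp1r3d differed by 0.19 (SE 0.18) on the log2 scale at baseline, Ppp1r3e by 0.35 (SE 0.22) and Ppp1r3f by 0.22 (SE 0.22), all higher in ByJcl. At Day 5 the corresponding differences were 0.02 (SE 0.20), -0.13 (SE 0.25) and -0.17 (SE 0.24). These 3 are broadly expressed or less studied members of the family, and each had fewer than 8 CPM in every library. None of the 3 differed by more than 2 SE at either time.

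**Figure D2:**
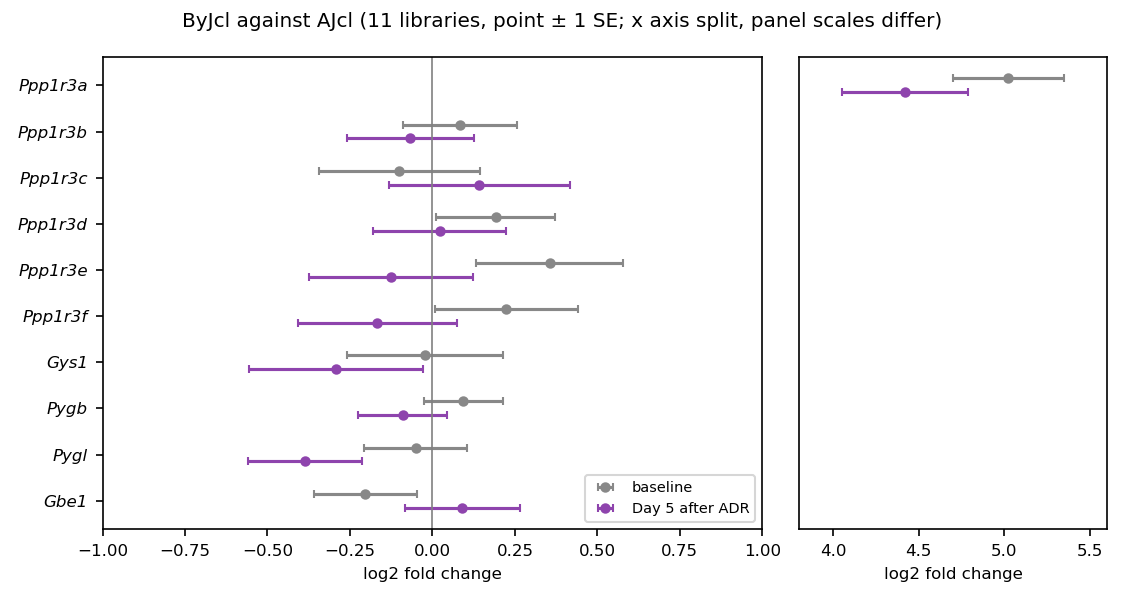
Log2 fold change of ByJcl over AJcl (horizontal axis, split in 2 panels of different scale) for each gene at baseline (grey) and Day 5 (purple), from 11 libraries, with bars of 1 SE on each side. Ppp1r3a stands at 5.02 and 4.42, and the other 9 genes lie between -0.39 and 0.35.

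The libraries of the substrains overlapped for all 4 enzymes at baseline and for all but Pygl at Day 5. Gys1, the glycogen synthase of muscle and most other tissues, stood at 12.5, 12.4 and 20.7 CPM in AJcl and at 10.6, 16.2 and 17.1 CPM in ByJcl at baseline, a log2 fold change of -0.02 (SE 0.24). Gbe1, the branching enzyme, stood at 29.7, 27.6 and 25.6 CPM in AJcl and at 27.5, 23.0 and 20.2 CPM in ByJcl, a log2 fold change of -0.20 (SE 0.16). Gys1 varied most within AJcl, where replicate 3 was the highest of the 12 libraries.
Pygb, the brain-type glycogen phosphorylase, stood at 71.2, 80.1 and 82.6 CPM in AJcl and at 79.7, 85.8 and 79.1 CPM in ByJcl at baseline, a log2 fold change of 0.09 (SE 0.12). Pygl, the liver-type phosphorylase, had a log2 fold change of -0.05 (SE 0.16) at baseline. At Day 5 Pygl stood at 7.0 and 7.2 CPM in AJcl replicates 2 and 3 and at 5.7, 5.4 and 5.3 CPM in ByJcl, a log2 fold change of -0.39 (SE 0.17). AJcl Day 5 replicate 1 had the highest Pygl level of all, 10.4 CPM, and with it the log2 fold change was -0.59. Pygb and Pygl share runs of up to 29 bases, and Pygb shares up to 62 bases with the muscle-type phosphorylase Pygm, runs shorter than the reads of 150 bases. Gys1 overlaps Ruvbl2 on the opposite strand, which had 1129 to 2136 counts per library. The libraries were strand-specific, but the strand setting of the counting is not given in the sources used here, so where the genes overlap their reads may not be told apart.

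Levels of different genes were compared per kilobase (kb) of canonical transcript. Pygb led in all 4 groups, with means from 17.3 to 20.8 CPM per kb, and Gbe1 was next, with 7.57 to 8.94 CPM per kb. In AJcl, Gys1 came after Gbe1 and did not overlap with it, and Ppp1r3a was the lowest of the 10 at 0.203 ± 0.075 CPM per kb at baseline and 0.339 ± 0.045 at Day 5 (SD, n = 3). In ByJcl, Ppp1r3a took rank 3 at both times. It reached 6.51 CPM per kb at baseline (range 5.28 to 8.56) and 7.61 at Day 5 (range 6.13 to 9.61). Its range overlapped that of Gbe1 above it and not that of Gys1 below it. Pygl and the other 5 subunits had means between 1.48 and 2.86 CPM per kb in the 4 groups, and most neighbours among them overlapped. With the union of all exons as length, Ppp1r3a moved to rank 2 in ByJcl, above Gbe1, and kept rank 10 in AJcl. Gys1 then moved from rank 3 to 4 in AJcl at baseline and from 4 to 6 in ByJcl at both times. Pygl moved from rank 4 to 8 in AJcl at baseline, from 4 to 7 in AJcl at Day 5 and from 6 to 10 in ByJcl.

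Ppp1r3a thereby made up a different part of its family in each substrain. As a share of the summed level per kb of the 7 Ppp1r3 genes, it was 2.19% ± 0.81 in AJcl at baseline and 3.65% ± 0.45 in AJcl at Day 5 (SD, n = 3). In ByJcl it was 39.1% ± 6.8 at baseline and 45.3% ± 6.8 at Day 5 (SD, n = 3). The summed level of the other 6 genes was alike in the 4 groups, at 9.14, 8.97, 9.95 and 9.06 CPM per kb in mean for AJcl baseline, AJcl Day 5, ByJcl baseline and ByJcl Day 5. The family total was 9.34 and 9.31 CPM per kb in AJcl and 16.5 and 16.7 in ByJcl. Ppp1r3g added next to nothing, with 0 to 6 counts in a library, and was not tested.

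**Figure D3:**
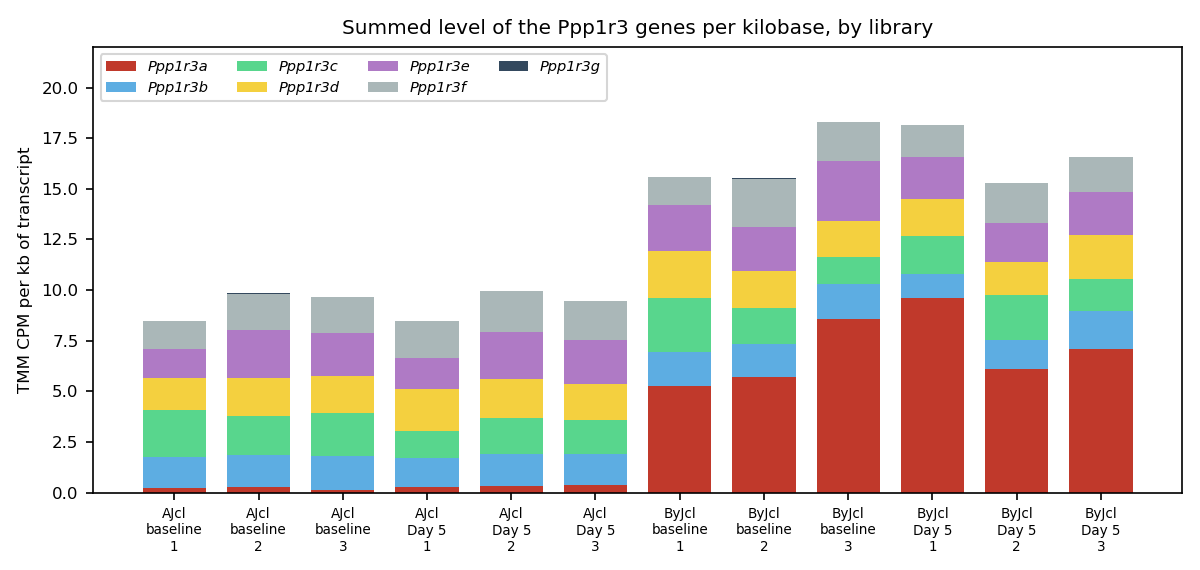
Summed level of the 7 Ppp1r3 genes in TMM CPM per kb of canonical transcript (vertical axis, from 0) in each of the 12 libraries, with a colour for each gene. The red part, Ppp1r3a, is a thin band at the foot of the AJcl columns and lies between 5.28 and 9.61 in ByJcl, while the other parts add up to 8.17 to 10.3.

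Since Ppp1r3a is known as a gene of striated muscle, muscle markers were read in the same libraries. The 11 skeletal muscle markers other than Pvalb, which distal tubules also express, summed to 2.69 to 2.98 CPM in AJcl and 2.26 to 2.77 CPM in ByJcl at baseline. At Day 5 they summed to 3.38 to 4.45 CPM in AJcl and 4.21 to 5.95 CPM in ByJcl. Ckm, Myh1, Myh2 and Myh4 were at 0 in all AJcl baseline libraries, and Myh2 and Tnnc2 in all ByJcl baseline libraries. The 8 cardiac markers summed to 5.45 to 5.80 CPM in AJcl and 5.45 to 6.52 CPM in ByJcl at baseline, and to 5.21 to 7.53 and 5.56 to 12.5 CPM at Day 5. The 6 smooth muscle markers summed to 766 to 851 CPM in AJcl and 821 to 909 CPM in ByJcl at baseline. At Day 5 their sums did not overlap, at 813 to 895 CPM in AJcl and 1044 to 1164 CPM in ByJcl. Tagln alone was without overlap, at 129 to 209 CPM against 287 to 354 CPM, while Acta2, Myh11, Cnn1, Des and Smtn overlapped. The part of these markers in the Day 5 difference of Ppp1r3a was not tested. The skeletal muscle sums of the substrains overlapped at baseline.
The 10-gene podocyte sum was 15927 to 21500 CPM in AJcl and 19762 to 22804 CPM in ByJcl at baseline, and 11629 to 17069 and 10069 to 14212 CPM at Day 5. Proximal tubule markers summed to 1241 to 5638 CPM in AJcl and 431 to 2373 CPM in ByJcl, and were highest in AJcl Day 5 replicate 1. Over all libraries, 8 glomerular endothelial markers summed to 6736 to 9570 CPM in AJcl and 5965 to 10822 CPM in ByJcl, and 6 mesangial markers to 1440 to 1824 and 1622 to 2350 CPM. The 6 liver markers summed to 124 to 316 CPM in AJcl and 39.2 to 221 CPM in ByJcl at baseline, and to 178 to 499 and 40.7 to 152 CPM at Day 5. Most of this sum was Cyp2e1, at 168 to 463 CPM in AJcl and 33.8 to 141 CPM in ByJcl at Day 5. Serpina1a went the other way, at 1.37 to 2.17 and 3.15 to 4.21 CPM, and Alb was at most 2.75 CPM in any library. Of 5 erythroid markers 4 were listed at 0 in every library, and the sum was at most 10.3 CPM. The summed level of the 8 myeloid markers was higher in every ByJcl library at each time, though not that of each gene, at 73.0 to 125 CPM against 42.5 to 65.9 CPM at baseline and 79.3 to 141 CPM against 33.1 to 73.5 CPM at Day 5. The summed level of the 8 distal nephron markers was lower in every ByJcl library at Day 5, at 104 to 536 CPM against 865 to 2156 CPM, and the ranges of the sum only just met at baseline, at 143 to 561 CPM against 561 to 1777 CPM. The myeloid sum thus moved with the substrain at both times. At Day 5 the distal nephron sum and the liver sum, mostly Cyp2e1, also did. The part of these sums in the Ppp1r3a difference was not tested.

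Ppp1r3a lies on chromosome 6 at chr6:14680679-14755331 of GRCm39, on the minus strand, with no annotated gene overlapping it. Of the 10 other genes within 2000000 bases that the tables hold, 8 were tested, and 0 of them passed the threshold between substrains at Day 5. At baseline 0 passed of the 7 that had counts, since Vwde had none. The nearest tested gene at lower coordinates, 1110019D14Rik, 636274 bases away, had a log2 fold change of -0.49 at baseline and -0.27 at Day 5. The nearest at higher coordinates, the transcription factor gene Foxp2, 145956 bases away, had 0.60 and 1.26, from at most 46 counts in a library. The 7 values at baseline ranged from -0.52 to 0.60 and the 8 at Day 5 from -1.56 to 1.26, all below the value of Ppp1r3a.

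**Figure D4:**
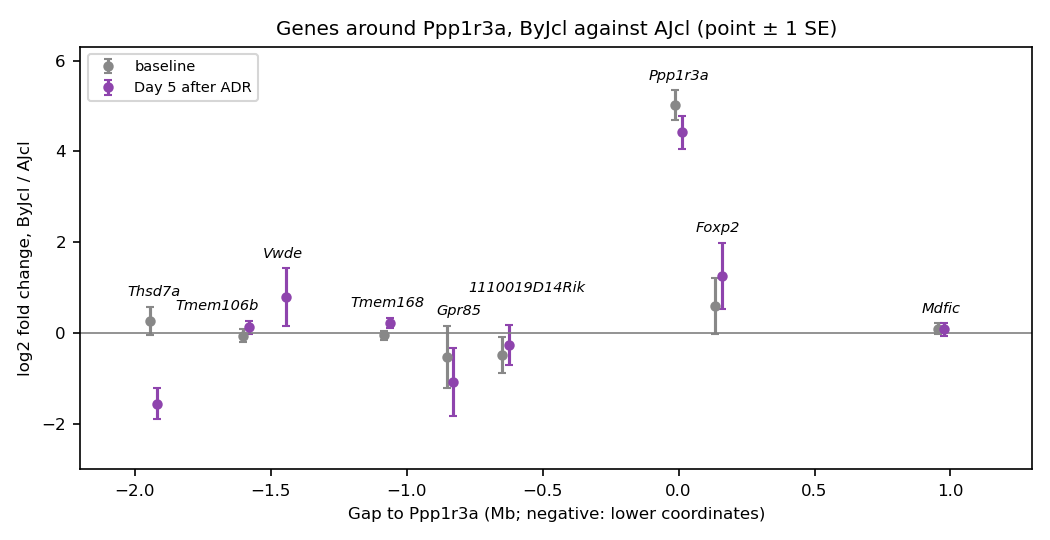
Log2 fold change of ByJcl over AJcl (vertical axis, with bars of 1 SE on each side) against the gap to Ppp1r3a in megabases (horizontal axis), for Ppp1r3a and the tested genes around it at baseline (grey) and Day 5 (purple). Vwde has no baseline point because it had no counts in baseline libraries. Ppp1r3a stands at 5.02 and 4.42, and its neighbours lie between -1.56 and 1.26.

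The promoter of Ppp1r3a is shown because this gene carries the difference between substrains. It is the RefSeq window of 250 bases before to 50 bases after the start, chr6:14755225-14755524 of GRCm38.p6, minus strand. Capitals mark a match to the motif of MEF2, a factor of muscle gene promoters.
Ppp1r3a promoter: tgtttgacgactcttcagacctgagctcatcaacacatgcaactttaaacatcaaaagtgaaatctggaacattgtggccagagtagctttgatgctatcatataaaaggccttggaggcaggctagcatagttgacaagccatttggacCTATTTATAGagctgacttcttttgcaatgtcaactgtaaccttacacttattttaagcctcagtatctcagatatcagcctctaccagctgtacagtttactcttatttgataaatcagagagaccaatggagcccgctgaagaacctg
The match, CTATTTATAG, lies 100 to 91 bases before the start. Both strands were searched, and the motif was picked after the sequence had been seen. It occurred in 1 of the 8 members with a promoter in the table and in 3.19% of 32851 promoters. The motif TATAAA, also searched on both strands, occurred in the same member, 149 to 144 bases before the start and once more inside the MEF2 match on the other strand, and in 13.6% of all promoters. Whether the BALB/c substrains carry these bases was not analysed here.

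The next comparison addressed whether ADR changed the members. In AJcl, 0 of 10 members passed an adjusted p of 0.05 between Day 5 and baseline, where 0.312% of all genes did. In ByJcl, 0 of 10 passed, where 10.6% of all genes did. The number at an unadjusted p below 0.05 was 1 in AJcl and 2 in ByJcl, where 9.80% and 26.8% of all genes were below it, and DESeq2 also called 0 in each. The members' median log2 fold change was 0.03 in AJcl and -0.15 in ByJcl, against -0.01 and 0.01 over all genes tested.
Ppp1r3a had the largest estimate among the members in AJcl. Its log2 fold change there was 0.82 (SE 0.34, edgeR quasi-likelihood adjusted p = 0.445), and the 3 Day 5 libraries, at 2.1 to 2.7 CPM, all lay above the baseline libraries at 0.9 to 1.9 CPM. With the 2 Day 5 libraries of the fit, a level above baseline in every Day 5 library held for 13.4% of all genes tested in AJcl, and the AJcl libraries also entered the difference that led to the choice of the gene. In ByJcl the log2 fold change of Ppp1r3a was 0.21 (SE 0.26, edgeR adjusted p = 0.663), with overlapping libraries.

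**Figure D5:**
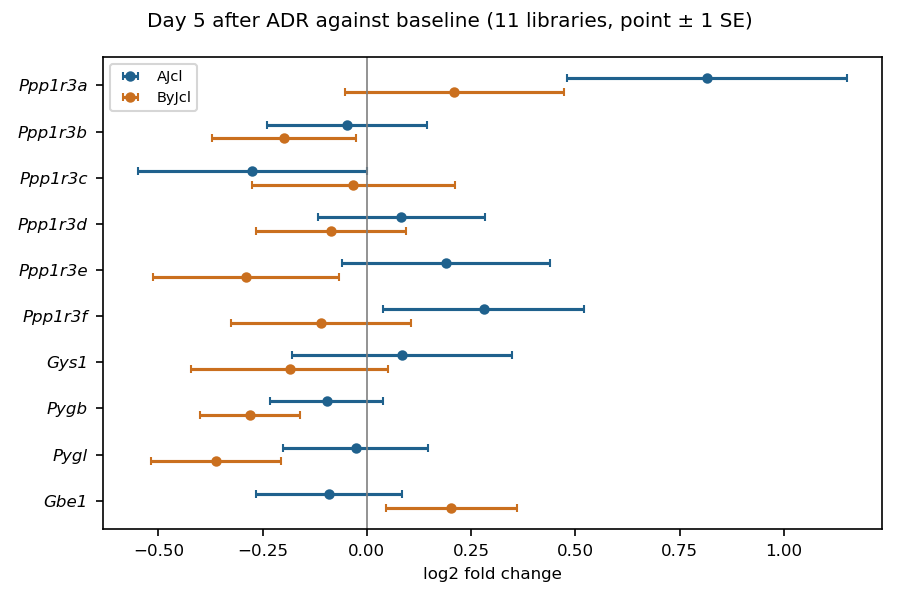
Log2 fold change of Day 5 after ADR over baseline (horizontal axis) for each gene in AJcl (blue) and ByJcl (orange), from 11 libraries, with bars of 1 SE on each side. The estimates lie between -0.27 and 0.82 in AJcl and between -0.36 and 0.21 in ByJcl, and no gene passed the adjusted threshold.

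The phosphorylases had the smallest p-values in ByJcl. Pygb stood at 79.7, 85.8 and 79.1 CPM at baseline and at 80.0, 55.8 and 67.7 CPM at Day 5, a log2 fold change of -0.28 (SE 0.12, edgeR adjusted p = 0.164). Its Day 5 replicate 1 was within the baseline range and the other libraries were below it. Pygl stood at 7.9, 6.0 and 6.9 CPM at baseline and at 5.7, 5.4 and 5.3 CPM at Day 5, a log2 fold change of -0.36 (SE 0.16, edgeR adjusted p = 0.167). The Day 5 libraries of Pygl all lay below baseline, as did those of 15.2% of all genes tested.
In AJcl the same contrast gave -0.10 (SE 0.13) for Pygb and -0.03 (SE 0.17) for Pygl. Gys1 had a log2 fold change of 0.08 (SE 0.26) in AJcl and -0.19 (SE 0.24) in ByJcl. Gbe1 gave -0.09 (SE 0.18) and 0.20 (SE 0.16). The libraries of the groups overlapped for Gys1 and Gbe1 in both substrains.
Among the other subunits, Ppp1r3c fell outside its baseline range in AJcl, with 4.6, 6.0 and 5.6 CPM at Day 5 against 7.7, 6.4 and 7.0 CPM, and had a log2 fold change of -0.27 (SE 0.27). Ppp1r3f lay above its baseline range in AJcl, at 5.6 to 6.2 CPM against 4.2 to 5.5 CPM, with a log2 fold change of 0.28 (SE 0.24). Ppp1r3e lay below its baseline range in ByJcl, at 3.58 to 3.95 CPM against 4.05 to 5.52 CPM, with a log2 fold change of -0.29 (SE 0.22). Day 5 libraries that all lay on the same side of baseline were found for 25.9% of all genes tested in AJcl and 33.1% in ByJcl, against 3 and 2 of the 10 members. The lowest edgeR adjusted p of these 3 subunits was that of Ppp1r3e, 0.449.

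Whether the response to ADR differed between substrains was tested as an interaction, and 0 of 10 members passed, as did 0% of all genes tested. At an unadjusted p below 0.05 the interaction counted 0 members and 1363 of all genes, and DESeq2 called 22 genes, none of them a member. The interaction of Ppp1r3a was -0.61 (SE 0.43, edgeR adjusted p = 0.720) on the log2 scale. The members' median was -0.23, against 0.00 over all genes tested.

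The wider pathway was read from a list of 27 further tested genes of glycogen metabolism, among them glycogenin, phosphorylase kinase subunits, PP1 catalytic subunits, glycogen synthase kinases and glucose-6-phosphatases. Between substrains 0 of the 27 passed at baseline and 0 at Day 5, with 3 and 4 at an unadjusted p below 0.05, as were 8.34% and 13.96% of all genes. DESeq2 called 0 and 1, the latter Pgm2, where it called 101 and 535 of all 17002 genes. Between Day 5 and baseline, 0 passed in AJcl (0 at an unadjusted p below 0.05, against 9.80% of all genes, and 0 by DESeq2). In ByJcl 1 rose and 1 fell, Pgm2 and Gaa, or 2 of 27 where 10.6% of all genes passed. There 5 were at an unadjusted p below 0.05, against 26.8% of all genes. DESeq2 called 3, the third being Epm2a, lower at Day 5, where it called 2694 of all 17002 genes. For the interaction 0 passed, with 1 at an unadjusted p below 0.05, against 8.02% of all genes, and 0 by DESeq2.
Gaa, the lysosomal acid alpha-glucosidase that degrades glycogen in lysosomes, stood at 97.0, 100.4 and 109 CPM in ByJcl at baseline and at 78.4, 48.1 and 61.7 CPM at Day 5. All Day 5 libraries lay below baseline, and the log2 fold change was -0.72 (SE 0.15, edgeR adjusted p = 0.0125). Pgm2, a phosphoglucomutase, stood at 29.1, 26.8 and 29.1 CPM at baseline and at 40.3, 45.6 and 41.0 CPM at Day 5. All Day 5 libraries lay above baseline, and the log2 fold change was 0.56 (SE 0.13, edgeR adjusted p = 0.0202). The Pgm2 call was lost without any of the 3 ByJcl baseline libraries or without ByJcl Day 5 replicate 2, with adjusted p from 0.0528 to 0.0837 and log2 fold changes from 0.51 to 0.59. In the same ByJcl libraries the podocyte sum was 19762 to 22804 CPM at baseline and 10069 to 14212 CPM at Day 5. The smooth muscle sum was 821 to 909 CPM at baseline and 1044 to 1164 CPM at Day 5, of which Tagln held 104 to 157 CPM and 287 to 354 CPM. Cnn1, at most 2.53 CPM, was also higher without overlap, and Acta2, Myh11, Des and Smtn overlapped between the times. The glomerular endothelial sum was 9328 to 10822 CPM and 5965 to 9054 CPM, with Kdr, Ehd3 and Flt1 lower without overlap and its other markers overlapping. The skeletal muscle sum without Pvalb was 2.26 to 2.77 CPM and 4.21 to 5.95 CPM. The erythroid sum, from Alas2 alone, was 4.45 to 8.21 CPM and 0.18 to 0.94 CPM. None of these sums overlapped between the times, and their part in the Gaa and Pgm2 changes was not tested. In AJcl the log2 fold changes were -0.26 (SE 0.16) for Gaa and 0.01 (SE 0.14) for Pgm2, and the interactions were -0.46 (SE 0.22, edgeR adjusted p = 0.631) and 0.55 (SE 0.19, edgeR adjusted p = 0.620).

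The genes whose pattern over the 12 libraries was most like that of Ppp1r3a were Ubtd1, Galk2, Oas1a, Tmem215 and Oas1b, with Pearson r of log2(CPM + 1) of 0.987, 0.985, 0.980, 0.972 and 0.972. The libraries fall into 2 clusters by substrain for Ppp1r3a and r follows that split. No other member was among them. The closest was Ppp1r3e with r of 0.39, rank 3125 of 17001 genes, and the farthest was Pygl with -0.62.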

How the data were processed

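Poly(A)-selected, paired RNA-seq of bead-isolated glomeruli was counted per gene by the authors with FastQC, Trimmomatic, STAR (GRCm39) and featureCounts. The deposited values are raw counts of 26264 gene symbols in 12 libraries, and the gene annotation is not given in the sources used here. Totals ran from 42198416 to 54687045 counts per library, so 3 counts equal 0.0546 to 0.0693 CPM. Between 77.1% and 82.9% of counts from 1 to 49 were even, and halved counts were tried.

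Counts were tested in R 4.3.3 with edgeR 4.0.16 (filterByExpr with 4 groups, TMM, glmQLFit and glmQLFTest) on 11 libraries, without AJcl Day 5 replicate 1, with a mean for each group and 7 degrees of freedom left for the spread. P-values were adjusted by Benjamini-Hochberg over 17002 genes at 0.05. DESeq2 1.42.0 was an alternative. Levels used TMM over 12 libraries. Lengths and coordinates came from GENCODE vM39, and the script was tested on simulated data. The members, the glycogen list and the 11 marker lists (skeletal, cardiac and smooth muscle, podocyte, glomerular endothelium, mesangium, proximal tubule, distal nephron, liver, myeloid, erythroid) were chosen with earlier results of these data known. By rule the named genes are the members, listed glycogen genes that passed a test, the nearest tested neighbours and the 5 closest patterns. Markers, overlapping genes, near relatives (Ppp1r3g, Pygm) and the genes behind a changed count were named after their values were seen.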

Additional observations from a re-analysis of the deposited data

How the results depend on the processing

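The number of members past the threshold was the same in every contrast under every alternative run for it. The fit on only the groups compared gives no interaction. For Ppp1r3a, the log2 fold change between substrains ranged from 4.74 to 5.31 at baseline and from 4.22 to 4.58 at Day 5. Between substrains the sign turned under some alternatives for Ppp1r3c (-0.42 to 0.11), Gys1 (-0.18 to 0.24) and Pygl (-0.16 to 0.04) at baseline, and for Ppp1r3b (-0.27 to 0.06), Ppp1r3d (-0.12 to 0.11), Ppp1r3e (-0.17 to 0.04), Pygb (-0.23 to 0.03) and Gbe1 (-0.04 to 0.23) at Day 5. Of the members' log2 fold changes for ADR and the interaction, 318 of 330 kept their sign when 1 library was left out and 225 of 230 under the other alternatives, and 0 passed the threshold.

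The list of other glycogen genes gave 1 call between substrains at Day 5 with DESeq2 (Pgm2). For ADR in ByJcl it gave 3 with DESeq2 (Epm2a, Gaa and Pgm2), 3 in the fit on the groups compared and without AJcl baseline replicate 1 or 2 (Gaa, Pgm2 and Phka2), and from 1 to 4 calls when 1 library was left out. The 4 calls came without ByJcl Day 5 replicate 1 and were Epm2a, Gaa, Pgm2 and Stbd1. The cause was not tested.

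For ADR and the interaction, signs turned for small values. Leaving out AJcl Day 5 replicate 2 or 3 leaves 1 library in that group, which is then assumed to vary like the other groups, and the lowest value of Gys1 and the lowest count for ADR in AJcl below come from such fits. With 12 libraries the ADR log2 fold change in AJcl was 0.16 for Pygl and 0.0089 for Gbe1. With the replicate number as a block it was -0.0563 for Gys1 and 0.018 for Pygl in AJcl, and 0.00730 for Ppp1r3c in ByJcl. With 1 library left out it ran in AJcl from -4.34e-05 to 0.15 for Ppp1r3d, from -0.012 to 0.36 for Ppp1r3e, from -0.10 to 0.36 for Gys1 and from -0.081 to 0.039 for Pygl. In ByJcl it ran from -0.24 to 0.28 for Ppp1r3c, from -0.21 to 0.033 for Ppp1r3d and from -0.29 to 0.088 for Ppp1r3f. The interaction of Ppp1r3b ran from -0.33 to 0.0084.

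Same-numbered libraries did not deviate together, with correlations from -0.39 to 0.53, so the numbers do not pair them, and the block changed no call among the listed genes. Calls over all genes with the block were 19 at baseline, 19 at Day 5, 26 for ADR in AJcl, 1592 for ADR in ByJcl and 0 for the interaction. Over all alternatives, leaving a library out included, the calls were 12 to 101 at baseline, 6 to 535 at Day 5, 11 to 301 for ADR in AJcl, 680 to 2694 for ADR in ByJcl and 0 to 22 for the interaction, with the highest counts from DESeq2. Low counts of Ppp1r3a in AJcl, 40 to 136 per library, limit its precision there.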
